A study of Homo sapiens with 3 samples.

Results

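The regions described here are replication origin calls, termed origins below, with a strong signal in each of 3 replicates of untreated HCT116 cells. HCT116 is an established human colorectal cancer line. EPIC2 regions on chromosomes 1 to 22 that held a MACS2 summit of their own replicate were merged where they overlapped between replicates. Of 121286 merged regions, 41995 held at least 2 replicates and 8030 held all 3. An origin was called strong in a replicate when its highest summit score was at or above the 90th percentile of that replicate's summit-holding regions. Among the 8030 origins, 2374 were strong in replicate 1 (29.6%), 810 in replicate 2 (10.1%) and 821 in replicate 3 (10.2%). Only 80 origins were strong in all 3 (0.996%). They are called strong origins from here on, and the other 7950 serve as their comparison. The strong origins were chosen by these summit scores, so their scores are given as a description, with no test.

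DNA replication in human cells starts at many places that are licensed in G1, when the origin recognition complex recruits the MCM helicases, and of which only a part fires in a given S phase. Each fired origin makes short nascent strands that begin with an RNA primer. Short nascent strand sequencing (SNS-seq) purifies these strands with λ-exonuclease, which degrades DNA that lacks the primer, and maps them to the genome.

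All 3 libraries came from 1 condition with no treatment, labelled as replicates 1 to 3, and no label says whether they came from separate cultures. MACS2 gave single-base summits, whose score is −log10 of the q-value, and EPIC2 gave wider regions. Summit-holding regions on chromosomes 1 to 22 numbered 101129, 25104 and 56487 in replicates 1, 2 and 3. Read depth is unknown because the lists hold calls only. Coordinates are those of hg19, and genes and sequence at the origins were not analysed here, since the reference at hand is of another build.

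The 90th percentile was a top summit score of 16.7, 20.6 and 9.83 in replicates 1, 2 and 3. For replicate 1 the 80 top scores ran from 16.8 through a median of 36.6 to 1305. In replicate 2 they ran from 20.6 through 35.6 to 2272, and in replicate 3 from 9.85 through 12.8 to 3497. The same region on chromosome 1 held the highest score of all summits on chromosomes 1 to 22 in each replicate. The median top scores of the other 7950 origins were 11.5, 5.93 and 4.92 in the same order. The lowest of the 3 percentiles was that of replicate 3 in 36 strong origins (45%), of replicate 2 in 33 (41.2%) and of replicate 1 in 11 (13.7%), close to the 44.5%, 43.1% and 12.4% among the others. No source states whether scores were scaled between replicates, so the order of the 3 scores of an origin has no meaning by itself and is used only to set groups of origins side by side.

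**Figure D1:**
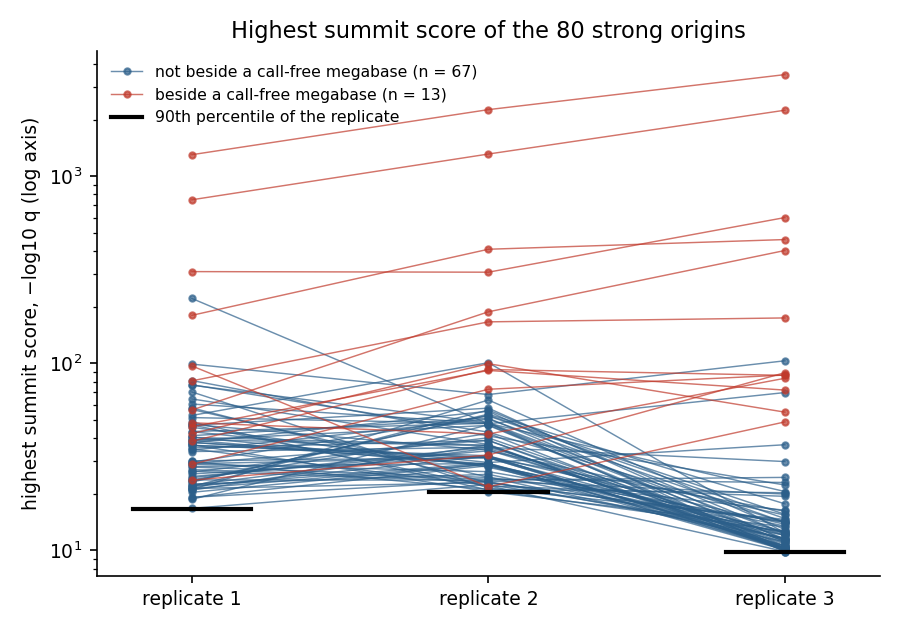
Highest summit score (−log10 q, log axis) of each of the 80 strong origins in the 3 replicates, with a line joining the values of 1 origin and black bars at the 90th percentile of each replicate. The highest scores in every replicate belong to some of the 13 origins beside a call-free megabase (red), others of which lie among the rest, and most of the other 67 (blue) lie close above the bar in replicate 3.

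The rule cuts a continuous range of scores. Just inside it lay an origin of 59000 bases on chromosome 16, from 89752401 to 89811400, whose replicate 2 score of 20.6 stood at percentile 90.1 of that replicate. Next were chromosome 8 from 145624001 to 145685200 and chromosome 17 from 74444401 to 74514000, whose replicate 3 scores were 9.85 and 9.86. Just outside it were chromosome 8 from 130951001 to 130968000, chromosome 7 from 1531601 to 1566400, and chromosome 14 from 90083801 to 90086400, with lowest percentiles of 89.98, 89.9 and 89.8. The members next to the threshold are therefore separated from the nearest non-members by little.

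How often origins strong in 2 replicates were also strong in the remaining one was described by holding out each replicate in turn. Of 95 origins strong in replicates 2 and 3, 80 were strong in replicate 1 (84.2%, 95% exact binomial interval 75.3 to 90.9), against 29.6% of the 8030. Of 342 strong in replicates 1 and 3, 80 were strong in replicate 2 (23.4%, interval 19.0 to 28.2), against 10.1%. Of 543 strong in replicates 1 and 2, 80 were strong in replicate 3 (14.7%, interval 11.9 to 18.0), against 10.2%. The share was above the background in 3 of 3 replicates, by 2.85, 2.32 and 1.44 times, and averaged 40.8% ± 37.9 (SD, n = 3). The 80 in each share are the strong origins themselves, which also count in each background. The 3 shares thus describe how the scores of the rule overlap and are not separate support for it. Their SD follows from the sizes of the 3 chosen sets, 95, 342 and 543, and is not an error over replicates. A 2-sided exact sign test over 3 replicates cannot go below 0.25, so no p-value is given. The intervals cover counting error only, and neighbouring regions are not independent.

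The share exceeded its background least in replicate 3. Without the origins beside call-free megabases, described next, the shares were 81.7%, 20.6% and 12.6% for replicates 1, 2 and 3, against 29.4%, 9.97% and 10.02% of the remaining origins. The interval for replicate 3 then ran from 9.93 to 15.8 and held its background share. Among the origins with exactly 1 summit in every replicate, in which a wide region cannot gain from holding several summits, the shares were 80%, 24.2% and 19.5%, against 30.3%, 8.07% and 10.8%.

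**Figure D2:**
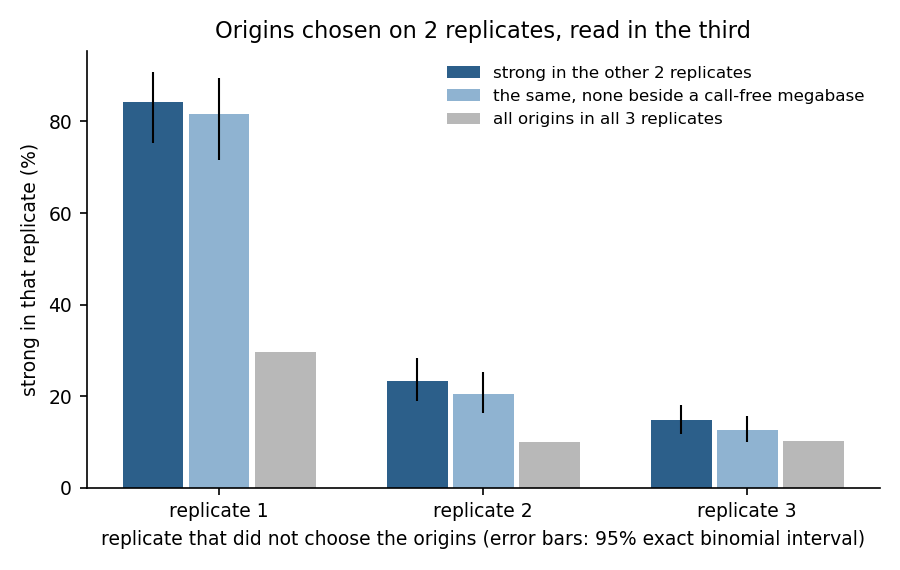
Share of origins that were strong in the replicate named on the horizontal axis, for origins strong in the other 2 replicates (dark blue), for the same without those beside a call-free megabase (light blue) and for all origins in 3 replicates (grey), with 95% exact binomial intervals. The dark bars of 84.2%, 23.4% and 14.7% all stand above the grey ones, with the narrowest distance in replicate 3.

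Strong origins lay beside large parts of the genome without calls more often than the other origins did. Of the 80, 13 (16.2%, interval 8.95 to 26.2) lay beside a 1 Mb window with no call of either caller in any replicate, against 22 of the other 7950 (0.277%). Such windows made up 168 of 2893 (5.81%). Read the other way, 13 of the 35 origins beside a call-free window were strong (37.1%, interval 21.5 to 55.1), against 67 of the 7995 elsewhere (0.838%). Of the 35, 20, 13 and 20 were strong in replicates 1, 2 and 3, but the 13 count in each of these by the rule. The share of 16.2% depends on which and how many origins qualify. By the summit score it was 36.4% of 33 origins at the 95th percentile and 5.36% of 261 at the 80th. Ranked by the EPIC2 score, 606 origins passed in all 3 replicates, 6 of the 13 among them, and 0.990% lay beside a call-free megabase. The score and the number of origins changed together there, and their parts were not tested. Without replicate 2 or replicate 3, when 603 and 1099 origins qualified, the share was 2.99% and 2.09%. All 13 stayed strong, which the rule fixes wherever their regions stay joined, since the levels of the replicates left did not change.

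The 13 origins sat at 9 call-free stretches on 9 chromosomes, 4 of them on chromosome 10, 2 on chromosome 1 and 1 each on chromosomes 2, 6, 7, 16, 18, 19 and 21. All but the one on chromosome 21 were at the longest call-free stretch of their chromosome. These stretches were 21.05 Mb long on chromosome 1, 11.2 Mb on chromosome 16 and between 3.10 and 3.55 Mb on chromosomes 2, 6, 7, 10, 18, 19 and 21. An origin touched the edge of its stretch in 4 cases, and the others lay up to 439928 bases away, with a median distance over the 13 of 26379 bases. Satellite arrays of centromeres and assembly gaps are parts of a genome build in which few reads can be placed uniquely. What these stretches hold was not analysed here, and the part that read mapping plays in these scores was not tested.

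The strongest of all lay on chromosome 1 from 121484001 to 121485600, where it touched the 21.05 Mb stretch, and scored 1305, 2272 and 3497 in replicates 1, 2 and 3. Its 3 summits fell within 53 bases. Across that stretch, at its far edge, the origin from 142535401 to 142540800 scored 48.1, 41.9 and 83.2. The call-free stretch of chromosome 1 was thus flanked on either side by a strong origin.

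On chromosome 7 the origin from 61968601 to 61971400, 439928 bases past a stretch of 3.55 Mb, scored 749, 1316 and 2256, and its top summit lay on the same base in all 3 replicates. On chromosome 6 the origin from 58776201 to 58779600 touched its stretch and scored 309, 307 and 602. Chromosome 19 had a strong origin from 27731801 to 27740200, also at the edge of its stretch, with 181, 407 and 459. All of these exceeded the median of the strong origins in every replicate.

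Chromosome 10 carried a run of 4 strong origins between 42377001 and 42600400, and these were the only origins of all 3 replicates in that span. The first, from 42377001 to 42389800, scored 56.3, 189 and 401, and was the only one of the 13 whose top summits lay over 500 bases apart (4923 bases). The next, from 42390601 to 42400800, followed after 800 bases and scored 38.4, 92.7 and 86.3. The third, from 42529201 to 42531000, scored 42.1, 99.6 and 54.9, and the last, from 42596801 to 42600400, scored 80.7, 167 and 175. All 4 scored above the medians of the strong origins in replicates 1, 2 and 3.

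The remaining 4 lay on chromosomes 2, 16, 18 and 21. The origin on chromosome 2 from 92296201 to 92297200 scored 45.8, 91.7 and 72.0, and that on chromosome 16 from 46427001 to 46428600 scored 23.8, 32.4 and 89.2. On chromosome 18 the origin from 18517001 to 18520400 scored 28.9, 72.7 and 86.6, with its top summits within 7 bases. The origin on chromosome 21 from 11088401 to 11098800 scored 96.9, 21.9 and 48.6, with a replicate 2 score close to the threshold. One more, on chromosome 2 from 91770801 to 91785800, lay 136200 bases from a stretch of 1149254 bases but not beside a call-free window of the grid.

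Score profiles over the replicates differed between these 13 and the other 67 strong origins. As a description of the scores that chose them, on a scale that may differ between replicates, the replicate 3 score was above the replicate 1 score in 12 of 13 beside a call-free megabase and in 3 of 67 elsewhere. Median scores in replicates 1, 2 and 3 were 56.3, 99.6 and 89.2 beside one, and 34.3, 32.1 and 12.3 elsewhere. The highest scores elsewhere were 222, 100.8 and 103. Rank correlations of the scores across origins were 0.72 (replicates 1 and 2), 0.63 (1 and 3) and 0.83 (2 and 3) over the 13, and 0.16, 0.12 and -0.12 over the 67. They are descriptions: both sets were cut at the same scores, which narrows their ranges, and each set of scores comes from 3 libraries.

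**Figure D3:**
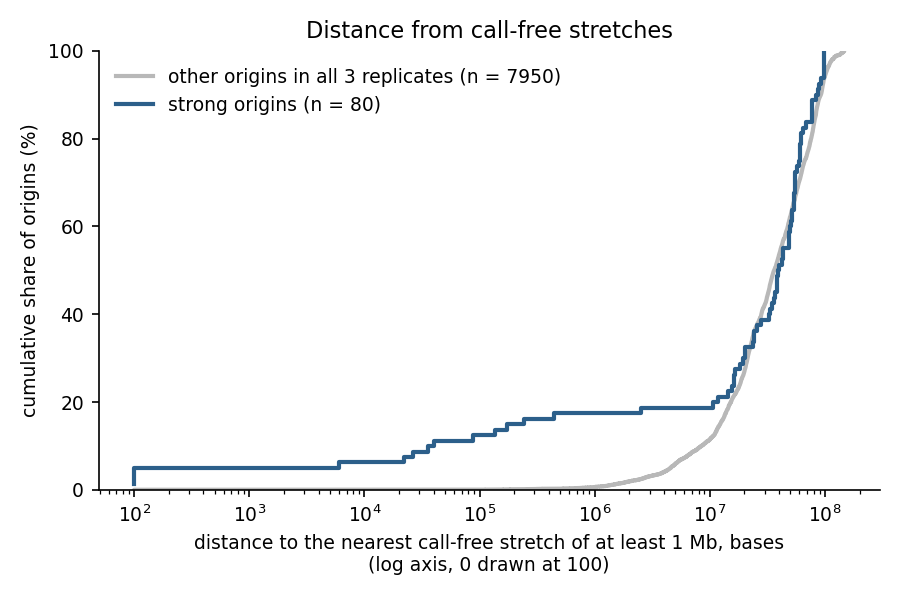
Cumulative share (%) of the 80 strong origins (blue) and of the other 7950 origins in all 3 replicates (grey) by distance in bases to the nearest call-free stretch of at least 1 Mb, on a log axis with touching origins drawn at 100. The blue line stands at 17.5% at 1 Mb, where the grey line stands at 0.642%, and the lines run close together at larger distances.

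Width spread the strong origins over a wide range. Their merged widths ran from 600 to 161000 bases with a median of 7500, against 400 to 113200 with a median of 6800 for the others. Both ends were filled more than among the others: 14 of 80 (17.5%) were at most 2000 bases wide, against 1.96%, and 23 (28.7%) were at least 20000 bases wide, against 7.95%. At 50000 bases and over the shares were 16.2% and 0.742%. A wider region can hold more summits and so a higher top score, which ties width to the rule that chose the members, and no test was made. By width, 1.12% of origins up to 5200 bases were strong, 0.491% of those above that and up to 9400 bases, and 1.38% of wider ones. All 13 beside call-free megabases were between 1000 and 12800 bases wide, with a median of 3400, so the 23 origins of at least 20000 bases were all among the other 67, whose median was 8400. Without chromosomes 8, 10, 16 and 17, the median width of the 33 strong origins left was 4200 bases.

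Merged width overstates the shared part. The stretch covered by all 3 replicates had a median of 2300 bases in strong origins and 1400 in the others, which was 30.1% and 21.95% of the merged width. In 2 strong origins (2.50%) and 859 others (10.8%) no base was covered by all 3, the replicates being joined through overlaps of pairs. Single replicates gave median widths of 3800, 3600 and 5500 bases for the strong origins.

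The narrowest strong origin lay on chromosome 8 from 86572201 to 86572800, 600 bases in all, with scores of 43.1, 29.5 and 36.7 and top summits within 13 bases. The widest covered 161000 bases of chromosome 17, from 79944601 to 80105600, and scored 22.4, 35.1 and 10.8. It held 33, 17 and 15 summits in replicates 1, 2 and 3, and its top summits were spread over 158242 bases. It was merged from 7, 16 and 6 EPIC2 regions of replicates 1, 2 and 3, and 51.9% of it was covered by all 3. Unlike the narrowest, it is a merged stretch in which each replicate had its highest summit in another place.

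The 23 origins of at least 20000 bases lay on 6 chromosomes, 10 on chromosome 17, 4 on chromosome 8, 3 each on chromosomes 16 and 19, 2 on chromosome 10 and 1 on chromosome 1. On chromosomes 8, 10, 16 and 17 together lay 19 of the 23 (82.6%). Most of the 632 other origins of that size lay there too, 359 of them (56.8%). The median width of the 23 was 55800 bases, against 26200 for the 632 others. They held medians of 11, 5 and 7 summits in replicates 1, 2 and 3, against 6, 2 and 3. Per 10 kb the medians were close, 2.12 against 2.05, 0.875 against 0.820, and 1.35 against 1.27, so the density of summits was similar in both. Their median top scores were 30.1, 36.6 and 10.98, against 16.8, 8.91 and 6.32 for the other wide origins, and their highest were 76.5, 55.5 and 20.7, against 72.4, 116 and 28.7. None of the 23 had its top summits within 500 bases (0%, interval up to 14.8), against 2.53% of the other wide ones.

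The position of the top summit was not itself used to choose the origins. It is the place of the summit whose score chose them, so its comparison is not free of the rule and no test was made. The top summits lay within a range of 500 bases over the 3 replicates in 40 of the 80 strong origins (50%, interval 38.6 to 61.4) and in 1591 of the other 7950 (20.01%). Within 100 bases the shares were 30% and 4.86%, and within 200 bases 45.0% and 11.6%. Ranges above 5000 bases were also more frequent, in 35.0% against 23.5%. Within classes of width the shares within 500 bases were 80.6% against 38.2% up to 5200 bases, 76.9% against 15.9% above that and up to 9400 bases, and 13.9% against 4.97% above 9400 bases. The median range was 113 bases against 857, 95 against 2374.5, and 9910 against 6296.5 in the same classes. Up to 9400 bases the top summits of strong origins were thus closer than those of other origins, whereas above it their median range was larger, and at 20000 bases and over it was 21561 against 12145.5. Width was not matched within these classes. At 20000 bases and over the strong origins had a median width of 55800 bases against 26200, which leaves more room for a large range.

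**Figure D4:**
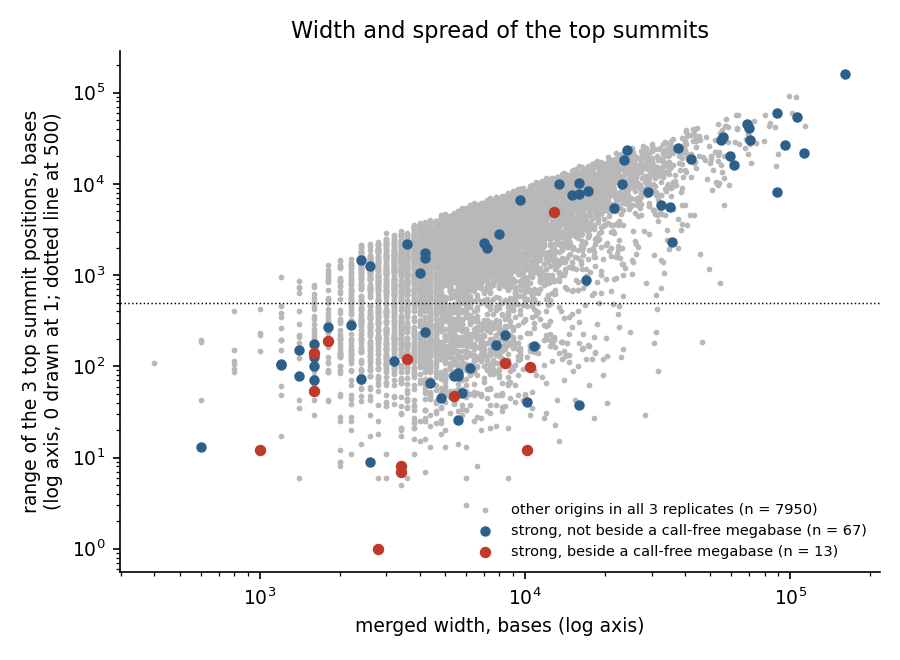
Range of the 3 top summit positions (bases, log axis, 0 drawn at 1) against merged width (bases, log axis) for strong origins beside a call-free megabase (red, 13), strong origins elsewhere (blue, 67) and other origins in all 3 replicates (grey, 7950). The dotted line marks 500 bases, under which lie 12 of 13 red and 28 of 67 blue points, while all points of at least 20000 bases among the strong origins lie above it.

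Replicates 1 and 2 placed their top summits closest. In 61 strong origins (76.2%) these were at most 100 bases apart, against 43.2% of the others. Replicate 3 was within 100 bases of replicate 1 in 36.2% of strong origins against 10.5% of the others, and of replicate 2 in 33.7% against 9.55%. The median distances were 27.5, 204 and 277 bases in strong origins for replicates 1 and 2, 1 and 3, and 2 and 3, against 149, 1414.5 and 1709 in the others. Among the 40 strong origins with ranges above 500 bases, replicates 1 and 2 were still a median of 50 bases apart, whereas replicate 3 was 6833.5 and 8147.5 bases away from them. By these medians the spread came mostly from the placement of replicate 3, but this did not hold in every origin. On chromosome 16 from 89752401 to 89811400, replicates 1 and 3 were 34 bases apart and replicate 2 lay 20391 bases from replicate 3. On chromosome 10 from 42377001 to 42389800, replicates 2 and 3 had the same base and replicate 1 lay 4923 bases away. Both were picked as examples.

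Close placement was not limited to the edges of call-free stretches. It held for 12 of 13 strong origins beside a call-free megabase and for 28 of the other 67 (41.8%). These 28 lay on 12 chromosomes, 8 of them on chromosome 8, and were between 600 and 16000 bases wide. The narrowest range among them was 9 bases, on chromosome 8 from 63323001 to 63325600, where scores were 22.2, 29.3 and 10.1. This origin and the others of the 28 named in the next sentences outside the highest-ranking ones were picked after their values were seen. On chromosome 7 the origin from 139455801 to 139461400 scored 76.8, 42.9 and 14.2 with a range of 26 bases. On chromosome 8 the origin from 115865201 to 115870800 scored 52.7, 100.8 and 12.4 with a range of 79 bases, its replicate 2 score being the highest of the 67 strong origins away from call-free megabases in that replicate.

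By lowest percentile over the replicates, 5 origins led those away from call-free megabases. The first was on chromosome 17 from 41391201 to 41402000, which scored 99.1, 68.1 and 103 with a summit range of 169 bases. Its neighbour, 4600 bases before it from 41376401 to 41386600, scored 222, 47.6 and 69.8 with a range of 41 bases and 1 summit in each replicate. No other strong origin of chromosome 17 was among the 5. On chromosome 8 the origin from 145227201 to 145269600 scored 43.2, 47.8 and 20.7 over 42400 bases, with a range of 18676 bases. Also on chromosome 8, the origin from 98608401 to 98611600 scored 80.9, 40.9 and 22.4, with a range of 113 bases. The last of the 5, on chromosome 10 from 75384401 to 75387000, scored 29.6, 52.4 and 14.8 with a range of 1252 bases.

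Origins with exactly 1 summit in every replicate formed 30% of the strong origins, 24 in all, and 27.3% of the others. Their widths ran from 600 to 10200 bases, with a median of 2100, and their summits lay within 500 bases in 20 of 24. The other 56 had a median width of 15500 bases.

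The rule did not use the EPIC2 score of the regions. That score comes from the same libraries and regions as the summit scores and is not independent of them. The EPIC2 score was at or above its own 90th percentile in 62, 61 and 46 of the 80 strong origins in replicates 1, 2 and 3, against 46.9%, 15.5% and 28.9% of the others. All 3 replicates passed in 39 strong origins (48.7%) and in 567 others (7.13%). Agreement between the callers was not complete: 1 strong origin beside a call-free megabase had an EPIC2 score at percentile 6.33 in replicate 1, and another elsewhere was at 5.27 in replicate 3. Beside call-free megabases 6, 13 and 11 of 13 passed in replicates 1, 2 and 3.

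Chromosomes differed in their numbers of strong origins. Chromosome 8 had 17 of its 693 origins (2.45%, interval 1.44 to 3.90), chromosome 17 had 15 of 995 (1.51%, 0.846 to 2.47) and chromosome 10 had 9 of 548 (1.64%, 0.754 to 3.09). Chromosomes 1 and 16 had 6 each, chromosome 7 had 5, chromosomes 2 and 19 had 4 each, and chromosome 12 had 3. Only the interval of chromosome 8 lay wholly above the 0.996% of all origins in all 3 replicates. In replicates 1, 2 and 3, 220, 74 and 132 of its 693 origins were strong, against 2374, 810 and 821 of all 8030. Among single replicates its count thus stood out mostly in replicate 3. The 17 strong origins of chromosome 8 all lay between 63323001 and 145740400, so the share is not that of a whole chromosome evenly. On chromosome 17, 1 lay from 7966801 to 7971000 and the rest between 41376401 and 80767200. How the other origins divide over these parts was not counted. Chromosome 19 had 4 of 765 (0.523%), although it has many origins in all 3 replicates. Of the 765, 214, 130 and 36 were strong in replicates 1, 2 and 3, with the fewest in replicate 3. Chromosomes 9, 13, 15, 20 and 22 had none, out of 274, 108, 179, 223 and 247 origins, with upper bounds between 1.34% and 3.36%. The number of reads or of DNA copies along the chromosomes was not analysed here.

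Per megabase of windows with calls, chromosome 17 led with 0.188 strong origins, before chromosome 8 with 0.118, chromosome 16 with 0.0741, chromosome 19 with 0.0690 and chromosome 10 with 0.0672. Apart from the 5 chromosomes with none, the fewest were on chromosome 3, with 0.00510. Chromosomes 8, 17, 10 and 1 held 58.7% of the strong origins and 36.7% of the origins in all 3 replicates.

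**Figure D5:**
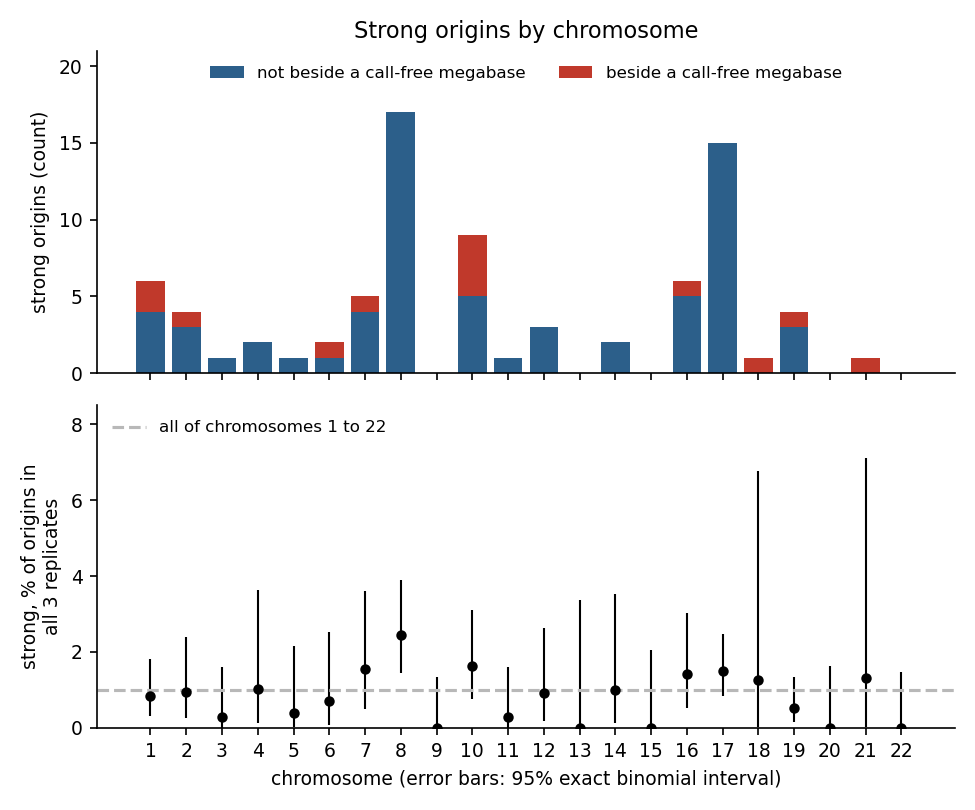
Number of strong origins per chromosome (upper panel, stacked bars: beside a call-free megabase in red, elsewhere in blue) and the share of origins in all 3 replicates that were strong (lower panel, %, with 95% exact binomial intervals and the share over chromosomes 1 to 22 as a dashed line). Chromosomes 8 and 17 have the highest counts, 17 and 15, with none beside a call-free megabase.

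Another strong origin lay within 100 kb of 12 of the 80 (15.0%), which formed 6 pairs and no larger group, 2 pairs each on chromosomes 8, 10 and 17. The pairs on chromosome 10 were those beside the call-free stretch, and the pair on chromosome 17 from 41376401 to 41402000 was that of the leading origins. On chromosome 8 the pairs spanned 98608401 to 98658800 and 145624001 to 145740400. The other pair on chromosome 17, from 78971601 to 79141200, had 1 more origin of all 3 replicates within its span. The median distance from a strong origin to the nearest other was 2513000 bases. With a reciprocal overlap of 50% required between replicates, 26 strong origins were left, none with another within 100 kb.

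Within 1 Mb, 30 of 80 (37.5%) had another strong origin, in 11 clusters of which 8 were pairs. Neither this share nor that within 100 kb was taken for sets of other origins. Whether strong origins clustered more than those therefore cannot be told from them. The largest clusters had 5 strong origins each. The first was on chromosome 8 from 144321601 to 145740400, 1.42 Mb with 26 origins of all 3 replicates. The second was on chromosome 17 from 78971601 to 80767200, 1.80 Mb with 41 such origins, and contains the widest strong origin. Both lay near the last call of their chromosome. Within 5 Mb of the last call were 14 strong origins (17.5%) against 10.99% of the others, 6 on chromosome 17, 5 on chromosome 8 and 3 on chromosome 16. Of the other origins in such places, 42.1% were on these 3 chromosomes.

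The nearest other origin of all 3 replicates was at a median of 21300 bases from a strong origin (quartiles 3700 and 127700) and of 25400 from the others (6400 and 83400), and 57 of 80 strong origins (71.2%) had one within 100 kb, against 78.0%. Beside call-free megabases 6 of 13 did.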

How the data were processed

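SNS-seq calls of 3 replicates of untreated HCT116 were used. Before deposit the authors used Bowtie2 2.3.4.2 for alignment to hg19 and Picard 2.18.17 against duplicates, and called each replicate by itself with MACS2 2.1.0.20151222 (q-value threshold 0.1) and EPIC2 (FDR threshold 0.1). No control library for calling is given in the sources used here. The deposited summit lists hold 1 score per summit, read as −log10 of the q-value. The deposited EPIC2 lists hold 1 score per region, of a kind not given in the sources used here, and it was used within a replicate only. EPIC2 starts lie on a grid of 200 bases.

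Regions with a summit of their replicate were merged over replicates on at least 1 shared base. An origin is wider than any replicate's region when regions chain. The level of strength was the 90th percentile, per replicate, of the highest summit score of each summit-holding region on chromosomes 1 to 22. Call-free windows were 1 Mb grid windows, up to the last call, without a region or summit of any replicate. An origin beside one lay in an adjoining window. Stretches were the gaps of at least 1 Mb between calls. Clusters were chained on the distance between edges. Shares have 95% exact Clopper-Pearson intervals. No test over regions was made, since the scores chose them.

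Regions named were the 5 with the highest lowest percentile beside call-free windows and the 5 elsewhere, 3 on each side of the threshold, the widest and narrowest, the 3 with the closest top summits, the largest clusters, and the chromosomes with most and fewest strong origins per Mb. The other origins beside call-free windows, the pairs, and chromosomes named beyond these were added after their values were seen. The rule, the members and the lists were chosen with earlier results of these data known.

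Alternatives changed the percentile, the score, the q-value, the overlap, the windows and distances, and left out each replicate. Interval functions were tested on simulated regions. Chromosomes X and Y, unplaced contigs and mitochondrial DNA were left out of the rule. The reference at hand is GRCh38, and the last call on chromosome 1 ended at 249216371 in hg19, so genes and sequence were not read. Computation used Python 3.11.15, numpy 2.4.6, pandas 2.3.3, scipy 1.17.1 and matplotlib 3.10.9.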

Additional observations from a re-analysis of the deposited data

Results flagged for a closer look

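Calls outside chromosomes 1 to 22, which the comparisons of the report did not use, held summits at the level of the strong origins. On 7 unplaced contigs there was such a summit in every replicate. Of the summits on unplaced contigs, 39 of 188 reached the level in replicate 1 (20.7%), 24 of 147 in replicate 2 (16.3%) and 48 of 177 in replicate 3 (27.1%). On chromosomes 1 to 22 the shares of summits were 4.76%, 4.12% and 4.30%. The highest scores on contigs were 4541, 1342 and 1365. No control library was used here for comparison. With 3 replicates in 1 group, outlying replicates were not tested.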

How the results depend on the processing

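The report gives 80 strong origins, 16.2% beside a call-free megabase, a median width of 7500 bases, 15.0% with another within 100 kb, 50% with top summits within 500 bases and a mean held-out share of 40.8%. Of 68 alternative values of the first 5, 35 moved by less than the error of the reported value or, for counts, stayed within 1.5 times. The held-out share ran from 36.7% to 60.9% over 9 alternatives. Its SD of 37.9 follows from the sizes of the chosen sets and is not an error, so whether the share moved cannot be told. The other values follow in the order of the report, and the causes were not tested except where fewer origins or replicates qualify by construction. The 80th percentile gave 261 strong origins, 5.36%, 9000 bases and 33.7% with close summits. The 95th percentile gave 33, 36.4%, 5600 bases and 63.6%. Ranking by the EPIC2 score gave 606, of which 39 were among the 80, with 0.990% beside a call-free megabase, 19800 bases, 64.5% with a neighbour and 5.94% with close summits. It kept 6 of the 13 beside a call-free megabase. The score and the number of origins changed together in this alternative, so their parts in the share cannot be told apart. A reciprocal overlap of 50% gave 26, 30.8%, 2700 bases, 0% and 76.9%. Leaving out each replicate gave 89 (without replicate 1) to 1099 (without replicate 3) strong origins, with 603 without replicate 2. The share beside a call-free megabase then ran from 2.09% (without replicate 3) to 18.0% (without replicate 1). The median width ran from 3400 to 4800 bases and the share with a neighbour from 11.2% to 21.9%. The share with close summits ran from 57.3% (without replicate 1) to 94.5% (without replicate 3). Whichever replicate was left out, only 2 positions were compared, so these shares are not like the reported 50%. Without replicates 1, 2 and 3 in turn, 74, 75 and 77 of the 80 stayed strong, among them all 13 beside a call-free megabase. The levels of the replicates left did not change, so an origin could be lost only where its regions were no longer joined. These counts are therefore no support for the set. The stretch covered by all 3 replicates had a median of 2300 bases. Another strong origin lay within 20 kb of 7.5% and within 1 Mb of 37.5%. Of the alternatives chosen after seeing the data, leaving out chromosomes 8, 10, 16 and 17 gave 33 strong origins, 4200 bases, 0% with a neighbour and 66.7% with close summits. Adding chromosome X moved none of the first 5 values beyond its error. Leaving out the origins beside call-free megabases moved none of the others among these. The share beside a call-free megabase was not taken there, since no such origin is left by construction. No paired analysis was possible because the samples form 1 group. Depth is unknown, so how the depth of replicate 2, with the fewest regions, limits the count of origins in all 3 cannot be told from the lists.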

Other observations

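By the same levels, 1 of 4 origins in all 3 replicates on chromosomes X and Y was strong. It lay on chromosome X from 58561201 to 58561800, touched a call-free stretch 3.16 Mb long, and scored 43.1, 79.2 and 107 in replicates 1, 2 and 3, with its top summits within 3 bases. Mitochondrial DNA held 5, 6 and 5 summits at or above the levels in the same order. The strongest origin on chromosome 1 was exceeded by 3, 2 and 1 summits outside chromosomes 1 to 22 in replicates 1, 2 and 3.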
